A study of Mus musculus with 6 samples.

Results

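The genes described here are the members of cytochrome P450 family 2, measured in mouse liver with and without deletion of *Spns1* (g*Spns1*-cKO and control). Members were all protein-coding rows of the deposited table whose symbol is Cyp2 followed by 1 subfamily letter and a number. The rule took 48 of the 54532 listed genes, in 13 subfamilies, and used no measured value. RNA-Seq had been made from poly-A RNA of whole liver, with 3 mice in each group and 1 library per mouse. The g*Spns1*-cKO mice carried *Spns1* fl/fl and Rosa26Cre-ERT2 on a C57BL/6 background, and intraperitoneal tamoxifen at 50 mg/kg on P11, P13 and P15 removed exon 3 of *Spns1*, a lysosomal transporter of lysolipids, from the whole body. The controls were *Spns1* fl/fl littermates without Cre according to the study's methods, whereas the sample labels call them wild type. The sources used here do not give the sex of the animals, their age at collection or whether the controls received tamoxifen.

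Family 2 P450s are heme enzymes of the endoplasmic reticulum that insert oxygen into drugs, steroids, fatty acids and other lipids, with electrons passed on by P450 oxidoreductase. In the liver their genes are controlled by nuclear receptors such as CAR and PXR, by liver-enriched factors such as HNF4A and CEBPA and, in rodents, by the sex-dependent pattern of growth hormone secretion acting through STAT5. Most members stand in tandem clusters of closely related copies, and several are known to be expressed mainly in females (*Cyp2b9*, *Cyp2b13*, *Cyp2a4*) or males (*Cyp2d9*).

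The close relation of the copies matters for reading the counts. *Cyp2b9* (ENSMUSG00000040660, chr7:26173411-26210661, plus strand, GRCm38) and *Cyp2b13* (chr7:26061497-26096197) have transcripts in GENCODE M21 that are 89.23% identical, and *Cyp2a4* (ENSMUSG00000074254, chr7:26307169-26315088) and *Cyp2a5* (chr7:26835305-26843548) have transcripts that are 98.22% identical. Upstream of the start the likeness was closer still for the 2b genes. Of the 250 bases before the RefSeq start, 248 were identical between *Cyp2b9* and *Cyp2b13* and 245 between *Cyp2a4* and *Cyp2a5*. The stretches below run from about 250 to about 37 bases before the start and are taken from RefSeq (GRCm38.p6, plus strand). They are shown because the genes of both pairs gave different counts although their upstream sequences differ at only a few bases, which are in capitals.
Cyp2b9: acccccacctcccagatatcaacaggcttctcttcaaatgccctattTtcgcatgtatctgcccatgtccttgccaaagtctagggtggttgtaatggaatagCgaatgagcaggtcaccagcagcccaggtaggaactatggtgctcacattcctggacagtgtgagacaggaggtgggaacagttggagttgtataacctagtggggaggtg
Cyp2b13: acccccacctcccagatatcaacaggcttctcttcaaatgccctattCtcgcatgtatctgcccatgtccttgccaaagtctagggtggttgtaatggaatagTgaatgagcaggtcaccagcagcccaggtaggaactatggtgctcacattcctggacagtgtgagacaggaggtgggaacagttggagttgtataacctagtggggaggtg
Cyp2a4: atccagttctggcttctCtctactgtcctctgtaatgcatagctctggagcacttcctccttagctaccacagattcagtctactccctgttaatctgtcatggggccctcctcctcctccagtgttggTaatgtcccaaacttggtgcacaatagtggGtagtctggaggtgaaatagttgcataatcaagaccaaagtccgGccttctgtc
Cyp2a5: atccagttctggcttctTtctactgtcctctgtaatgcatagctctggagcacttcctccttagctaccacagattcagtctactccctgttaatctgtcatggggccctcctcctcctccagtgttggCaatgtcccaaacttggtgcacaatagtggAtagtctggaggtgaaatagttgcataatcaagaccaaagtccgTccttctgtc
The printed stretches lie at chr7:26173159-26173372 for *Cyp2b9*, chr7:26061245-26061458 for *Cyp2b13*, chr7:26306943-26307155 for *Cyp2a4* and chr7:26835089-26835301 for *Cyp2a5*.

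The 6 libraries held between 30350002 and 35295611 counts, and the TMM factors of edgeR, which scale the libraries, were 0.834 to 0.873 in controls and 1.16 to 1.18 in g*Spns1*-cKO livers. *Spns1* was lower in g*Spns1*-cKO livers (log2 fold change -0.87, SE 0.25, edgeR adjusted p = 0.03). The call was lost without control 2, g*Spns1*-cKO liver 1 or g*Spns1*-cKO liver 3 (adjusted p = 0.0785 to 0.091), with library size as the only scaling (-0.43, adjusted p = 0.213) and with upper-quartile scaling (adjusted p = 0.0635). All 6 livers expressed Y-linked genes, with 1731 to 2568 counts of *Ddx3y*, and held at most 5 counts of *Xist*. Within family 2, liver 1 of the g*Spns1*-cKO group stood apart from the other two. Over the members tested, the root mean square log2 difference in CPM (counts per 1000000 of the TMM-scaled library, the unit of all levels here) was 0.53 between g*Spns1*-cKO livers 2 and 3, but 1.98 and 1.62 between liver 1 and these, and 1.37 to 1.53 between liver 1 and the controls. Over all genes tested liver 1 was 0.467 and 0.382 from livers 2 and 3 and the controls were 0.368 to 0.4 from one another. Calls that leaving out this library changes are therefore given with and without it for the genes named. The sources do not say whether the mice of a group came from separate litters, and the p-values measure the spread between these mice.

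Of the 48 members, 35 had enough counts to be tested, and 6 were listed at 0 in every library (*Cyp2b19*, *Cyp2b23*, *Cyp2c66*, *Cyp2j7*, *Cyp2j12*, *Cyp2w1*). In g*Spns1*-cKO livers 5 of the 35 rose and 14 fell at an adjusted p under 0.05 by edgeR's quasi-likelihood test. These are 14.3% and 40.0% of the members, against 21.3% higher and 20.5% lower among all 15449 genes tested. The same shares of all genes are the background for the counts of calls in subfamilies and gene lists given below for this fit. The median log2 fold change was -0.49 over the members and 0.01 over all genes. Without g*Spns1*-cKO liver 1, 38 members could be tested, of which 9 rose and 14 fell (23.7% and 36.8%, against 20.2% and 20.3% of all genes), and the median was -0.32. The members that rose were *Cyp2a4*, *Cyp2b9*, *Cyp2b10*, *Cyp2c39* and *Cyp2c68*. The members that fell were *Cyp2a12*, *Cyp2c23*, *Cyp2c54*, *Cyp2c67*, *Cyp2c70*, *Cyp2d9*, *Cyp2d10*, *Cyp2d22*, *Cyp2d40*, *Cyp2e1*, *Cyp2f2*, *Cyp2j5*, *Cyp2r1* and *Cyp2u1*. The CPM of the groups did not overlap for 5 members higher and 14 lower, against 27.1% and 27.0% of all genes.

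**Figure D1:**
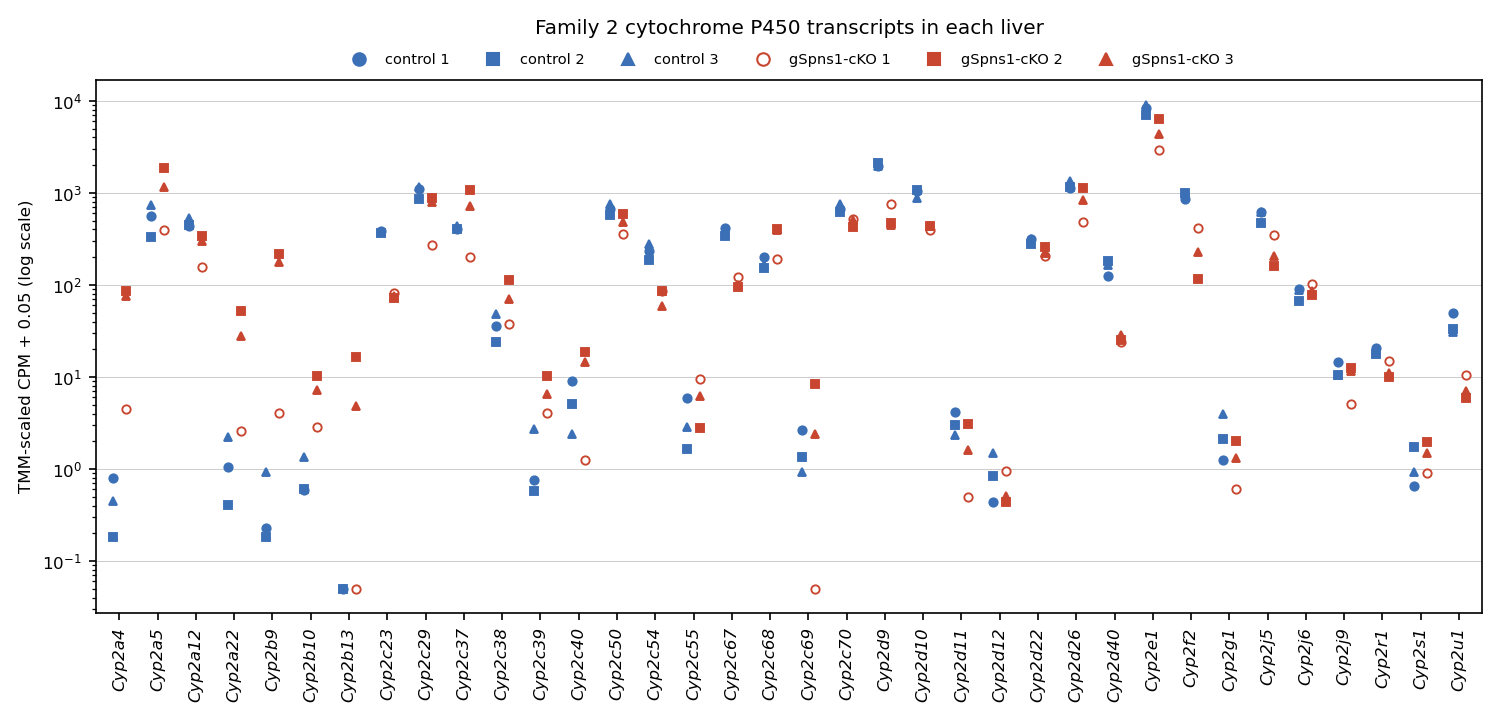
TMM-scaled CPM plus 0.05 on a log axis for the 35 members tested and *Cyp2b13*, with 1 symbol per liver, control livers in blue and g*Spns1*-cKO livers in red (liver 1 open). For *Cyp2b9* and *Cyp2a4* the open symbol lies between the controls and the other g*Spns1*-cKO livers. For *Cyp2a22* and *Cyp2b13* it lies near the controls, and the other g*Spns1*-cKO livers lie far above them. For *Cyp2c23*, *Cyp2c67* and *Cyp2d40* all 3 g*Spns1*-cKO livers lie together below the controls.

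Family 2 as a whole supplied 1.7, 1.54 and 1.77% of all counts in controls and 0.942, 1.82 and 1.39% in g*Spns1*-cKO livers, so the raw shares overlapped. On the TMM scale the summed level was 19503 ± 1747 CPM in controls and 11846 ± 3674 CPM in g*Spns1*-cKO livers (SD, n = 3 each), a log2 ratio of -0.76 with no overlap (exact permutation test, two-sided p = 0.1, the smallest that 3 against 3 mice can give). Summed by subfamily on the TMM scale, Cyp2d, Cyp2e, Cyp2f, Cyp2j, Cyp2r and Cyp2u were lower without overlap (log2 ratios of -1.19, -0.89, -2.1, -1.03, -0.71 and -2.29) and Cyp2b was higher (6.06). As raw shares of all counts, Cyp2e, Cyp2j and Cyp2r overlapped between the groups, whereas Cyp2d, Cyp2f, Cyp2u and Cyp2b did not. The sums of Cyp2a (0.34), Cyp2c (-0.49), Cyp2g (-0.94), Cyp2s (0.48) and Cyp2t (-0.66) overlapped between the groups (exact permutation p = 0.2 to 0.6), and the Cyp2a sum turned to -0.10 without g*Spns1*-cKO liver 2. The scaling bears on these levels. With library size as the only scaling, the median of all genes was 0.46, the median of the members -0.045 and their calls 7 higher and 9 lower, and with upper-quartile scaling the values were 0.14, -0.36, 5 and 10. The members' median lay 0.50 below the median of all genes under each of these scalings.

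**Figure D2:**
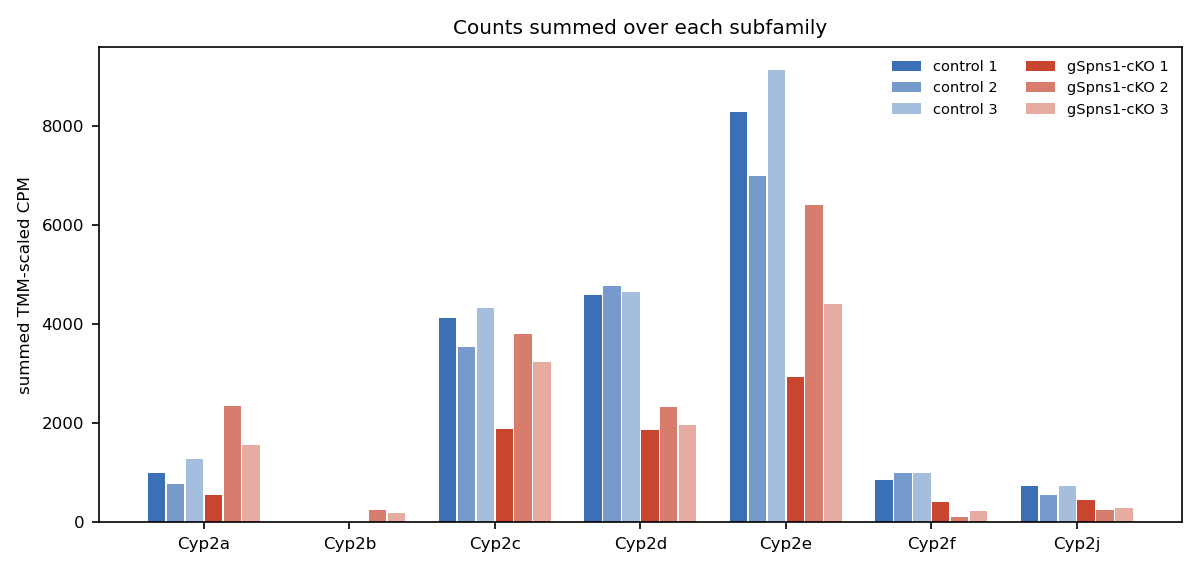
Summed TMM-scaled CPM of the subfamilies with the most counts, and of Cyp2b, as 1 bar per liver, control livers in blue and g*Spns1*-cKO livers in red. Cyp2d, Cyp2e, Cyp2f and Cyp2j are lower in all 3 g*Spns1*-cKO livers, Cyp2b is visible only in g*Spns1*-cKO livers 2 and 3, and Cyp2a and Cyp2c overlap.

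Markers of cell types moved as well, and whole-liver RNA cannot tell fewer cells of a type from less RNA per cell. Of 11 hepatocyte markers tested 5 fell and none rose by edgeR, also at an unadjusted p under 0.05, or by limma-voom, whereas DESeq2 called 1 higher (median log2 fold change -0.46), and their summed level was 125480 to 129460 CPM in controls and 79837 to 89083 CPM in g*Spns1*-cKO livers. With library size as the only scaling 2 hepatocyte markers were higher, 1 was lower and their median was -0.01. Among all genes 47.2% were higher and 6.28% lower with that scaling. All 10 macrophage markers rose (summed 186 to 304 against 814 to 1173 CPM), as did all 8 cholangiocyte markers (44.5 to 63.4 against 174 to 284 CPM), 7 of 9 stellate cell and fibroblast markers (200.1 to 235 against 548 to 588 CPM) and 5 of 8 endothelial markers (158 to 176 against 229 to 276 CPM). Of 10 lymphocyte and neutrophil markers tested 3 rose and 1 fell (7.22 to 8.7 against 11.5 to 15.2 CPM), and *Ly6g* was at 0 in all g*Spns1*-cKO livers. The defining hepatocyte gene *Alb* was abundant in every library, at 1346605 to 2175970 counts. The part of cell composition in the family's differences was not tested.

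The Cyp2b subfamily had very low counts in the controls. *Cyp2b9*, a female-biased P450, had 5, 4 and 22 counts in controls and 143, 8277 and 7057 in g*Spns1*-cKO livers. All g*Spns1*-cKO livers were above all controls, and livers 2 and 3 exceeded liver 1 by far. Its level was 0.392 ± 0.414 CPM in controls and 133 ± 113 CPM in g*Spns1*-cKO livers (log2 fold change 8.47, SE 2.14, edgeR adjusted p = 0.0386). The call rested on the particular set of libraries, since the adjusted p was 4.81e-04 without g*Spns1*-cKO liver 1 but 0.0953 to 0.123 without any other single mouse. With the filter of at least 1 count in any library it was 0.0644, and with limma-voom 0.44. *Cyp2b13*, the neighbour with nearly the same upstream bases, had 0 counts in the controls and 0, 631 and 190 counts in g*Spns1*-cKO livers. It was not tested because too few libraries held counts, and its mean was at least 65.9-fold higher than the mean of the control floors of 3 counts per library. Without liver 1 it could be tested and had an adjusted p of 0.0504. *Cyp2b13* equalled 7.62% and 2.69% of the *Cyp2b9* counts in g*Spns1*-cKO livers 2 and 3. Of the 100-base windows of the *Cyp2b9* transcript 1.18% also occur elsewhere, in *Cyp2b13* among others. For the *Cyp2b13* transcript the share is 9.29%, in *Gm45225* and *Cyp2b9*, so the division of reads among these genes is uncertain.

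*Cyp2b10* (ENSMUSG00000030483, chr7:25897620-25926624), the classical target of CAR and the most abundant 2b member per length in controls at 0.377 CPM per kb, had 15, 17 and 33 counts in controls and 101, 387 and 282 in g*Spns1*-cKO livers. It rose in every g*Spns1*-cKO liver, from 0.796 ± 0.439 to 6.68 ± 3.66 CPM (log2 fold change 3.09, SE 0.57, adjusted p = 0.00494). It was the 1 rising member that stayed past the threshold whichever mouse was left out, with log2 fold changes of 2.66 to 3.61. No 100-base window of its transcript occurs in another gene.

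In the Cyp2a subfamily, female-biased *Cyp2a4*, a steroid hydroxylase, had 21, 4 and 10 counts in controls and 161, 3319 and 3004 in g*Spns1*-cKO livers. The order of the livers was as for *Cyp2b9*, with liver 1 between the controls and the other two. The level went from 0.424 ± 0.309 to 55.7 ± 44.7 CPM (log2 fold change 7.05, SE 1.65, adjusted p = 0.0312). Without liver 1 the adjusted p was 1.87e-05, and without any other single mouse it was 0.0809 to 0.106. With the filter of at least 1 count in any library it was 0.0527, and with limma-voom 0.343. Its near copy *Cyp2a5*, which hydroxylates coumarin and nicotine, had 15966, 10253 and 18892 counts in controls and 14371, 71559 and 45903 in g*Spns1*-cKO livers. *Cyp2a5*, the most abundant 2a member per length at 265 CPM per kb in controls, did not pass the test (549 ± 207 against 1143 ± 732 CPM, log2 fold change 1.06, SE 0.63, adjusted p = 0.24), but did without liver 1 (1.46, adjusted p = 0.0301). Reads of the 2 genes can be mistaken for each other or for those of the pseudogene *Cyp2a21-ps*. Of the 100-base windows of the *Cyp2a4* transcript 11.2% also occur in *Cyp2a5* or *Cyp2a21-ps*. Of those of *Cyp2a5* 14.4% also occur in *Cyp2a4* or *Cyp2a21-ps*. *Cyp2a4* amounted to 0.132, 0.039 and 0.0529% of the *Cyp2a5* counts in controls and to 1.12, 4.64 and 6.54% in g*Spns1*-cKO livers. How far misassigned reads enter these shares was not tested.

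*Cyp2a22* followed the same order, with 28, 11 and 55 counts in controls and 90, 2017 and 1087 in g*Spns1*-cKO livers. Its log2 fold change of 4.59 (SE 1.45) had an adjusted p of 0.0675, and 0.0101 without liver 1. *Cyp2a12*, whose transcript is 91.1% identical to that of *Cyp2a22*, was abundant in all livers and fell. It had 12236, 13872 and 13542 counts in controls and 5588, 12903 and 11724 in g*Spns1*-cKO livers, or 473 ± 53.8 against 263 ± 95.3 CPM (log2 fold change -0.85, SE 0.26, adjusted p = 0.0322). The call was lost without any one of the 3 controls or g*Spns1*-cKO liver 3 (adjusted p = 0.056 to 0.0924) and with library size as the only scaling (-0.40).

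The Cyp2c subfamily, which contains epoxygenases of arachidonic acid and many drug-metabolizing enzymes, moved in both directions. Of 13 members tested 2 rose and 4 fell, where 21.3% of all genes tested rose and 20.5% fell. The largest fall was that of *Cyp2c23* (ENSMUSG00000025197, chr19:44005022-44029208, minus strand), an arachidonic acid epoxygenase. It had 10950, 11413 and 9604 counts in controls and 2922, 2793 and 2972 in g*Spns1*-cKO livers, with hardly any spread within the groups (380 ± 9.4 against 76.5 ± 4.29 CPM, log2 fold change -2.31, SE 0.12, adjusted p = 1.26e-06). *Cyp2c67* had 11800, 10590 and 9130 counts in controls and 4360, 3649 and 3901 in g*Spns1*-cKO livers (375 ± 39.8 against 105 ± 14 CPM, -1.83, SE 0.14, adjusted p = 1.5e-05). *Cyp2c54* had 6542, 5767 and 6976 counts in controls and 3083, 3305 and 2323 in g*Spns1*-cKO livers (232 ± 44.2 against 76.9 ± 15.5 CPM, -1.59, SE 0.19, adjusted p = 1.85e-04). These 3 falls were seen in all g*Spns1*-cKO livers, liver 1 included, and passed the test whichever mouse was left out.

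*Cyp2c70*, which makes muricholic acids and was the most abundant 2c member per length in controls at 342 CPM per kb, had 18584, 19130 and 19063 counts in controls and 18570, 16395 and 19865 in g*Spns1*-cKO livers. The raw counts overlapped, and only the TMM-scaled levels were apart (678 ± 67.7 against 483 ± 48.5 CPM, -0.49, SE 0.15, adjusted p = 0.0208). With library size as the only scaling the log2 fold change was -0.045, and the call was lost without control 3, g*Spns1*-cKO liver 2 or g*Spns1*-cKO liver 3. *Cyp2c68* rose, with 5684, 4702 and 4206 counts in controls and 6968, 15689 and 15608 in g*Spns1*-cKO livers (174 ± 25.5 against 333 ± 121 CPM, 0.94, SE 0.28, adjusted p = 0.0291). Liver 1 lay within the control range for this gene, and the call was lost without control 2, control 3, g*Spns1*-cKO liver 2 or g*Spns1*-cKO liver 3 (adjusted p = 0.0863 to 0.102). *Cyp2c39*, a retinoic acid hydroxylase, was low and rose, with 20, 16 and 68 counts in controls and 143, 394 and 253 in g*Spns1*-cKO livers (1.31 ± 1.2 against 6.89 ± 3.17 CPM, 2.43, SE 0.69, adjusted p = 0.0337). Its adjusted p was 0.0753 to 0.101 without control 1, control 2, g*Spns1*-cKO liver 2 or g*Spns1*-cKO liver 3, and 0.0963 with the filter of at least 1 count in any library.

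The other 2c members tested did not pass the threshold, with log2 fold changes from -0.67 for *Cyp2c29* to 1.16 for *Cyp2c69*. Several of them differed more among the g*Spns1*-cKO livers than between the groups. *Cyp2c37* had 11411, 12487 and 11106 counts in controls and 7275, 41438 and 28530 in g*Spns1*-cKO livers, below all controls in liver 1 and above them in livers 2 and 3 (0.68, SE 0.60, adjusted p = 0.411). Without liver 1 *Cyp2c37* was higher (1.11, adjusted p = 5.2e-04), as was *Cyp2c38* (1.35, adjusted p = 0.0454). *Cyp2c69* had 73, 40 and 22 counts in controls and 0, 319 and 93 in g*Spns1*-cKO livers. *Cyp2c40* had 253, 156 and 60 counts in controls and 43, 718 and 570 in g*Spns1*-cKO livers. *Cyp2c69* and *Cyp2c40* share 36.3% and 44.1% of their 100-base windows with other genes of the cluster, and *Cyp2c67* and *Cyp2c68* share 23.7% and 19.8%, so the division of reads among these 4 is uncertain. *Cyp2c67* amounted to 208, 225 and 217% of the *Cyp2c68* counts in controls and to 62.6, 23.3 and 25% in g*Spns1*-cKO livers.

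Those 4 genes also share a short element upstream. The letters CAAAGTCCA, a form of the site bound by HNF4A, were found on either strand within 250 bases before the start in 6 of the 40 members with a RefSeq window, all in Cyp2c, and in 0.384% of all 32851 windows. The stretches around the element are shown with it in capitals. *Cyp2c67* and *Cyp2c70* were called lower, *Cyp2c68* was called higher, *Cyp2c40* and *Cyp2c69* were not called and *Cyp2c65* was not tested. As given above, the calls of *Cyp2c70* and *Cyp2c68* depended on the mice included, and that of *Cyp2c70* also on the scaling. Whether the element bears on the counts was not tested.
Cyp2c67: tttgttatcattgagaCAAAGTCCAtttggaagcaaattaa
Cyp2c68: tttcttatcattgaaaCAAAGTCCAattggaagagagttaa
Cyp2c40: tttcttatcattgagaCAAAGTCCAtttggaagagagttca
Cyp2c69: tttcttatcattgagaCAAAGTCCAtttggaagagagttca
Cyp2c70: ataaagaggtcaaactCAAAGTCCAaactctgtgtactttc
Cyp2c65: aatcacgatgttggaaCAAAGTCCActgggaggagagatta
The stretches are the sense strand of RefSeq on GRCm38.p6, at chr19:39649143-39649183, chr19:39741154-39741194, chr19:39812835-39812875, chr19:39886820-39886860 and chr19:40187326-40187366 on the minus strand and chr19:39060874-39060914 on the plus strand. They lie upstream of the genes in GENCODE M21, except the end of the *Cyp2c70* stretch. The first 4 are near copies of one another, so their matches are not independent. Of the other motifs searched on both strands in the same windows, TTCNNNGAA was found in 2 members (7.02% of all windows), ATTGAT in 5 (6.72%) and AGGTCA in 10 (14.0%). None of these 3 overlaps CAAAGTCCA in its letters, and a match is a description of the sequence only.

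No Cyp2d member rose by edgeR, by DESeq2, by limma-voom or at an unadjusted edgeR p under 0.05 (0 of 7 each). Of the 7 members tested 4 fell, and the other 3 had log2 fold changes from -0.89 to -0.55. *Cyp2d9* (ENSMUSG00000068086, chr15:82433437-82456845), a male-biased steroid hydroxylase and the most abundant 2d member per length in controls at 754 CPM per kb, had 55636, 64411 and 49128 counts in controls and 27023, 18103 and 17502 in g*Spns1*-cKO livers. Every g*Spns1*-cKO liver was below every control (2003 ± 78.2 against 556 ± 169 CPM, -1.85, SE 0.21, adjusted p = 1.17e-04). *Cyp2d40* fell most, with 3508, 5592 and 4216 counts in controls and 851, 968 and 1113 in g*Spns1*-cKO livers (158 ± 29.4 against 25.7 ± 2.37 CPM, -2.61, SE 0.15, adjusted p = 3.08e-06). *Cyp2d10* had 29257, 32752 and 22362 counts in controls and 14243, 16891 and 17084 in g*Spns1*-cKO livers (995 ± 97.8 against 423 ± 24.1 CPM, -1.23, SE 0.14, adjusted p = 1.32e-04). These 3 genes kept their calls whichever mouse was left out. *Cyp2d9* and *Cyp2d10* share 9.86% and 14.8% of their 100-base windows with related genes.

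*Cyp2d22* was at the edge. It had 8976, 8597 and 7927 counts in controls and 7425, 9899 and 8840 in g*Spns1*-cKO livers, which overlap as counts, and 304 ± 21.6 against 230 ± 26.1 CPM, which do not (-0.40, SE 0.13, adjusted p = 0.0311). With library size as the only scaling the value turned to 0.042. Leaving out control 1, control 3, g*Spns1*-cKO liver 1 or g*Spns1*-cKO liver 3 ended the call. *Cyp2d26*, the third most abundant member of the family per length in controls at 671 CPM per kb, had 31649, 35542 and 33695 counts in controls and 17446, 43702 and 32829 in g*Spns1*-cKO livers and was not called (-0.55, adjusted p = 0.132). *Cyp2d34*, which was not tested, had 2, 113 and 18 counts in controls and 7, 0 and 1 in g*Spns1*-cKO livers.

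Of the 8 Cyp2j members 3 were tested, and *Cyp2j5* fell. *Cyp2j5* (ENSMUSG00000052520, chr4:96628773-96664154), an arachidonic acid epoxygenase and the most abundant 2j member per length in controls at 245 CPM per kb, had 17407, 14617 and 15880 counts in controls and 12642, 6090 and 8022 in g*Spns1*-cKO livers. Liver 1 was the highest of the g*Spns1*-cKO livers but below all controls (573 ± 85.9 against 238 ± 101 CPM, -1.27, SE 0.28, adjusted p = 0.00876), and the call held whichever mouse was left out. *Cyp2j6* (0.10) and *Cyp2j9* (-0.28) did not pass. *Cyp2j8* had 13, 14 and 8 counts in controls and 5, 2 and 1 in g*Spns1*-cKO livers, too few for the test, and was lower when liver 1 was left out (-3.30, adjusted p = 0.00859). *Cyp2j11* and *Cyp2j13* had at most 2 counts in any library.

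The remaining subfamilies have 1 member each, and of the 6 tested members 4 fell. None rose by edgeR, DESeq2 or limma-voom, or at an unadjusted edgeR p under 0.05. *Cyp2e1* (chr7:140763739-140774987), which oxidizes ethanol and small solvents in perivenous hepatocytes, was the most abundant member per length in both groups (3766 against 2120 CPM per kb) and gave 39.5 to 43.1% of the family's counts in controls and 36 to 41.3% in g*Spns1*-cKO livers. It had 232674, 215034 and 231087 counts in controls and 105435, 245504 and 173310 in g*Spns1*-cKO livers. The raw count of liver 2 exceeded every control, and on the TMM scale all g*Spns1*-cKO livers were lower (8126 ± 1081 against 4575 ± 1738 CPM, -0.83, SE 0.26, adjusted p = 0.0296). With library size as the only scaling the value was -0.38 with an adjusted p of 0.245, and the call was lost without control 1, control 3 or g*Spns1*-cKO liver 3.

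*Cyp2f2* (chr7:27119909-27133660), which oxidizes naphthalene, had 24203, 30682 and 25437 counts in controls and 14863, 4489 and 8914 in g*Spns1*-cKO livers. Every g*Spns1*-cKO liver was below every control, and liver 1 was the highest of them (954 ± 80.9 against 252 ± 150 CPM, -1.92, SE 0.45, adjusted p = 0.0178). The call was lost without g*Spns1*-cKO liver 3 (adjusted p = 0.0723) and with the filter of at least 1 count in any library (0.0769). An antisense gene, *Gm15883*, overlaps it, at 79 to 152 counts in all livers. *Cyp2u1* (chr3:131288441-131303227), a hydroxylase of long-chain fatty acids, had 1390, 1015 and 785 counts in controls and 380, 224 and 277 in g*Spns1*-cKO livers (37.8 ± 10.1 against 7.81 ± 2.45 CPM, -2.28, SE 0.27, adjusted p = 5.72e-04). *Cyp2r1*, a vitamin D hydroxylase, had 577, 540 and 503 counts in controls and 539, 382 and 428 in g*Spns1*-cKO livers (19.3 ± 1.57 against 11.9 ± 2.67 CPM, -0.69, SE 0.16, adjusted p = 0.0065). *Cyp2u1* and *Cyp2r1* passed whichever mouse was left out, and *Cyp2r1* was lost with library size as the only scaling (-0.25). *Cyp2g1* (-0.92) and *Cyp2s1* (0.41) did not pass. *Cyp2t4* had 3 to 6 counts in every liver and lies on the opposite strand of *Egln2*, at 2233 to 3309 counts.

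**Figure D3:**
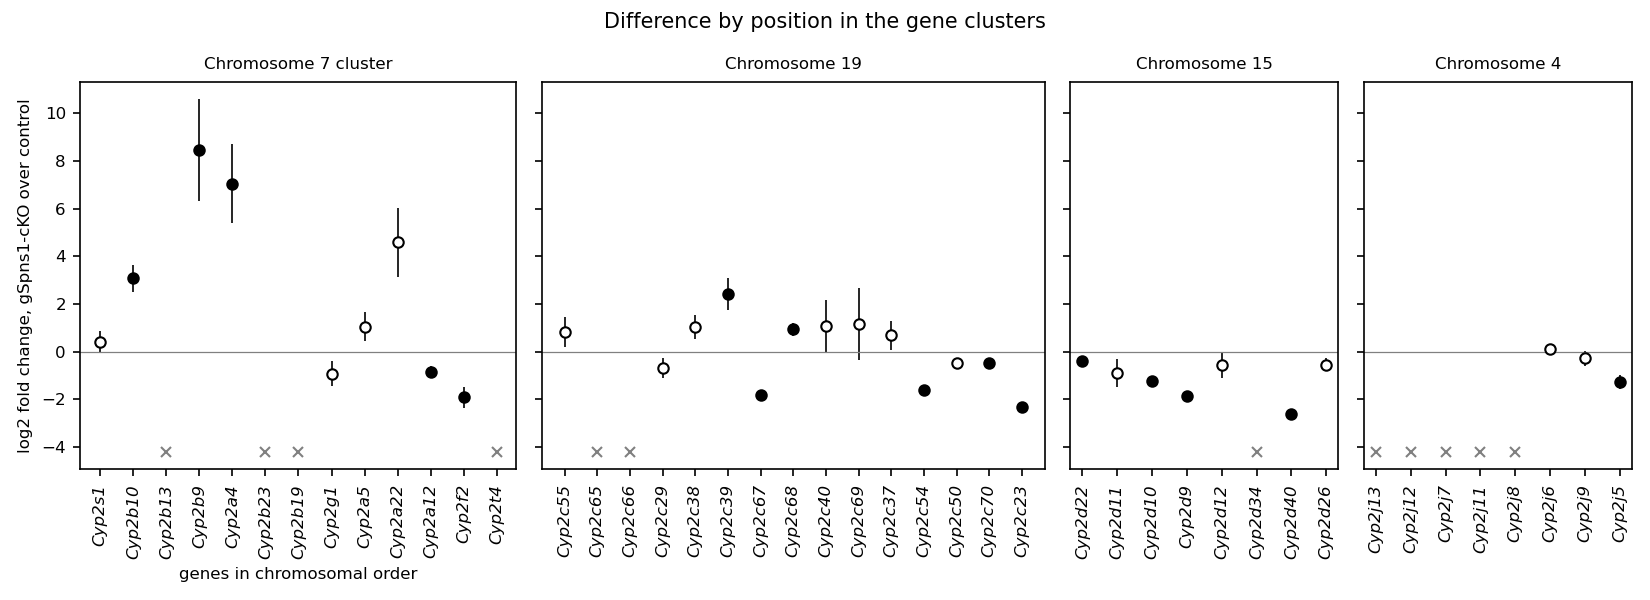
Log2 fold change of g*Spns1*-cKO over control with its SE for members in their order along 4 chromosomes. Filled points passed an adjusted p under 0.05, open points did not and grey crosses at the bottom mark members that were not tested. On chromosome 19 *Cyp2c39* and *Cyp2c68* rose on either side of *Cyp2c67*, which fell, and all called members after *Cyp2c68* fell. The rising members of the chromosome 7 cluster come before the falling ones. All tested members on chromosome 15 lie below 0 with the TMM scaling used, and *Cyp2d22* among them turns positive with library size as the only scaling.

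The clusters on chromosomes 7 and 19 each held rising and falling members. On chromosome 7 *Cyp2b9* and *Cyp2a4* rose and are neighbours in the order of members, while *Cyp2a12* and *Cyp2f2* farther along the same cluster fell. Members that were not called or not tested lie between these pairs (*Cyp2b23*, *Cyp2b19*, *Cyp2g1*, *Cyp2a5* and *Cyp2a22*). On chromosome 19 *Cyp2c39* and *Cyp2c68* rose directly on either side of *Cyp2c67*, which fell. All 7 tested members on chromosome 15 had negative log2 fold changes with TMM scaling, and *Cyp2d22* among them turned positive with library size as the only scaling. Between liver 1 and the other g*Spns1*-cKO livers, 23 of the 35 tested members had their lowest g*Spns1*-cKO level in liver 1, 11 their highest and 1 lay between. The same ranking was not made over all genes tested, so this count cannot be read as a trait of the family.

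Sex-biased liver genes outside family 2 were examined because several members are known for sex-biased expression. Of 24 male-biased genes 19 fell and none rose by edgeR (0 also at an unadjusted p under 0.05, by DESeq2 and by limma-voom), with a median log2 fold change of -4.29, and 23 fell without g*Spns1*-cKO liver 1. The most changed of those called were *Mup7*, a major urinary protein, with 108157, 121920 and 73972 counts in controls and 0 in every g*Spns1*-cKO liver, *Mup1* with 1240 to 1594 against 0 to 1 counts, and *Hsd3b5*, a steroid dehydrogenase, with 7088, 5249 and 2910 against 6, 2 and 2 counts (-10.93, SE 0.53, adjusted p = 3.82e-05, and -11.66 without g*Spns1*-cKO liver 1). The summed level of the list was 21073 to 27038 CPM in controls and 2537, 782 and 825 CPM in g*Spns1*-cKO livers 1, 2 and 3, so liver 1 had lost most of it too. Of 25 female-biased genes 17 were tested, of which 6 rose and 2 fell (median 2.09). *Sult3a1*, a sulfotransferase, had 1, 0 and 0 counts in controls and 16, 26 and 18 in g*Spns1*-cKO livers (5.08, SE 0.86, adjusted p = 0.00117, and 7.17 without control 1). *Nipal1* (3.28, adjusted p = 1.68e-04) and *Cib3* (3.24, adjusted p = 0.0335) were next. The *Cib3* call held only when control 1 was the mouse left out, and its adjusted p was 0.0687 without g*Spns1*-cKO liver 1 and 0.0527 to 0.104 without any of the other 4. *Lifr* (-1.63) and *Cyp17a1* (-1.43) fell. For these 3 rising genes all g*Spns1*-cKO livers, liver 1 included, were above all controls. Without g*Spns1*-cKO liver 1 the calls were 10 higher and 2 lower among 18 genes tested. The summed level of this list was 619 to 706 CPM in controls, 464 CPM in liver 1 and 1066 and 758 CPM in livers 2 and 3. Most of the control sum came from *Lifr*, *Cyp4a14* and *Cyp4a10*, with control means of 253, 164 and 135 CPM. In liver 1 they were at 77.8, 99.3 and 82.1 CPM, so its low sum does not describe the other genes of the list.

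**Figure D4:**
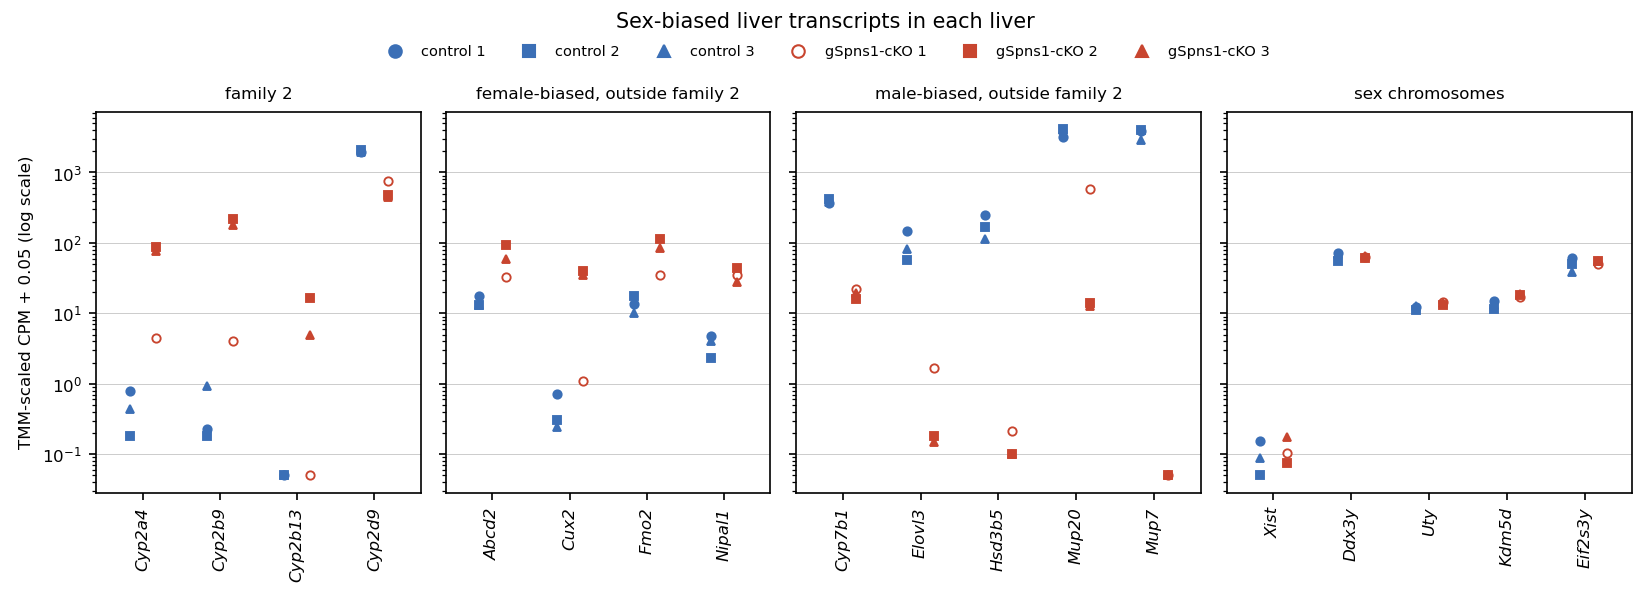
TMM-scaled CPM plus 0.05 on a log axis in each liver for 4 family 2 genes, 4 female-biased and 5 male-biased genes outside the family (picked from the lists after their values were seen) and sex chromosome transcripts, with control livers in blue and g*Spns1*-cKO livers in red (liver 1 open). Liver 1 lies between the groups for *Cyp2b9* and *Cyp2a4*, lies with the other g*Spns1*-cKO livers for *Cyp7b1* and *Mup7*, and the Y-linked genes are expressed in all 6 livers.

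Of 11 genes of growth hormone signaling tested 3 fell and none rose by edgeR (1 at an unadjusted p under 0.05, 1 by DESeq2 and 0 by limma-voom). The median was 0.04 (-0.10 without control 1 and -0.29 without g*Spns1*-cKO liver 2). The growth hormone receptor *Ghr* (-0.88, SE 0.18, adjusted p = 0.00309), *Igf1* (-0.79, adjusted p = 0.00116) and *Igfals* (-1.04, adjusted p = 1.54e-04) fell. *Stat5b* (0.15, adjusted p = 0.254) and the repressor *Bcl6* (-1.03, adjusted p = 0.267) did not pass. *Cux2*, a female-biased repressor also on the female-biased list, had 19, 8 and 5 counts in controls and 38, 1511 and 1379 in g*Spns1*-cKO livers (6.04, SE 1.76, adjusted p = 0.0557). Without g*Spns1*-cKO liver 1 it passed (6.60, adjusted p = 7.57e-07), and with limma-voom its adjusted p was 0.462. Its order of livers was that of *Cyp2b9* and *Cyp2a4*, with liver 1 close to the controls.

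Among 28 transcription factors known to act on P450 genes 4 rose and 11 fell (median -0.34, which turned to 0.10 with library size as the only scaling). The most changed of those called were *Dbp*, a factor of the circadian clock (-2.58, SE 0.65, adjusted p = 0.0348), *Onecut1*, which encodes HNF6 (-1.44, adjusted p = 0.0434), and *Cebpa* (-1.41, SE 0.18, adjusted p = 2.13e-04). The *Dbp* call was lost without any single mouse but g*Spns1*-cKO liver 1 (adjusted p = 0.0664 to 0.104), and without liver 1 its value was -3.51 (adjusted p = 9.71e-08). The *Onecut1* call was lost without any single mouse but control 3 (adjusted p = 0.0774 to 0.13), and with library size as the only scaling (0.113), upper-quartile scaling (0.0635) or limma-voom (0.0871). *Nr1i2*, which encodes PXR, fell slightly (-0.54, SE 0.16, adjusted p = 0.0206), with its call lost without control 3 or g*Spns1*-cKO liver 3 and with library size as the only scaling (-0.09). *Nr1i3*, which encodes CAR, did not pass (-0.16, SE 0.36, adjusted p = 0.761), with 955, 1048 and 1041 counts in controls and 622, 1807 and 1311 in g*Spns1*-cKO livers, nor did *Hnf4a* (-0.42, adjusted p = 0.0666). Of 23 other target genes of CAR and PXR tested 6 rose and 5 fell (median 0.24), where 21.3% of all genes tested rose and 20.5% fell. *Akr1b7*, an aldo-keto reductase (6.34, SE 1.42, adjusted p = 0.0194), the efflux pump *Abcc4* (2.95, adjusted p = 0.00767) and the organic anion transporter *Slco1a4* (2.93, adjusted p = 0.00183) rose most. The *Akr1b7* call was lost without control 1, control 2 or g*Spns1*-cKO liver 2 (adjusted p = 0.0635 to 0.0774), without control 3 its value was 8.21, and with limma-voom its adjusted p was 0.177. With library size as the only scaling 13 of these targets were higher and 3 lower, where 47.2% of all genes were higher and 6.28% lower.

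The genes that supply P450s with electrons and heme were also measured. Of 18 tested 10 fell and 1 rose (median -0.52), and with library size as the only scaling 3 fell and 2 rose (median -0.076). *Hmox1*, which degrades heme, rose (347, 536 and 385 counts in controls and 2025, 2133 and 2184 in g*Spns1*-cKO livers, 1.90, SE 0.13, adjusted p = 7.56e-06). This is RNA only, and the study reported HMOX1 protein as unaltered on Western blots of g*Spns1*-cKO livers. The heme-binding proteins *Pgrmc2* (-0.95, adjusted p = 4.98e-04) and *Pgrmc1* (-0.92, adjusted p = 0.00109) fell most. *Por*, the electron donor of all microsomal P450s, did not pass (13499, 22292 and 17912 counts in controls and 9152, 25078 and 17111 in g*Spns1*-cKO livers, -0.51, SE 0.34, adjusted p = 0.273). Neither did *Alas1*, the first enzyme of heme synthesis (-0.07, SE 0.35, adjusted p = 0.894).

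Of 20 perivenous hepatocyte genes outside the family 3 rose and 7 fell (median -0.17, which turned to 0.27 with library size as the only scaling). *Slc1a4* (2.88), *Nt5e* (1.92) and *Aldh1a1* (-1.90), which also stands on the list of CAR and PXR targets, changed most. Of the 51 P450 genes outside the rule, which are of other families except *Cyp2ab1* with its 2-letter subfamily, 35 were tested and *Cyp2ab1* was not. Of the 35 tested 7 rose and 12 fell (median 0.27, which turned to -0.12 without g*Spns1*-cKO liver 2). The most changed of those called were *Cyp3a57* (0, 1 and 0 counts in controls and 30, 29 and 30 in g*Spns1*-cKO livers), *Cyp7b1*, an oxysterol hydroxylase (10398, 12861 and 9655 against 784, 604 and 763 counts, -4.36, SE 0.16, adjusted p = 1.29e-07), and *Cyp21a1* (-3.56, adjusted p = 0.0483). The *Cyp21a1* value was -5.57 without g*Spns1*-cKO liver 1 (adjusted p = 0.00515), and the call was lost without any other single mouse (0.0627 to 0.141) and with library size as the only scaling (0.0548). On the TMM scale the summed level of the 51 genes was 6456 to 7601 CPM in controls and 5523 to 6383 CPM in g*Spns1*-cKO livers, without overlap. This separation depends on the scaling. With library size as the only scaling, 13 of the 35 tested were higher and 9 lower (median 0.72). Among all genes 47.2% were then higher and 6.28% lower.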

How the data were processed

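RNA-Seq of whole liver from 3 g*Spns1*-cKO and 3 control mice was taken as deposited, and samples were grouped by their labels. The authors deposited 1 table with unnormalized read counts per gene, together with FPKM values, a normalized signal per group, and their own comparison as log2 fold changes with raw and adjusted p-values. Only the counts were used. The FPKM values were left out because they are the same counts after scaling, and the comparison columns because they are the authors' results. The submitters' processing notes name fastp, HISAT2 2.0.5, featureCounts 1.5.0-p3 and the mm10 build, and strand use in counting is not given in the sources used here, so genes that overlap on opposite strands and near-identical copies are uncertain.

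Tests used edgeR 4.0.16 under R 4.3.3 (filterByExpr, TMM, robust quasi-likelihood test, Benjamini-Hochberg adjustment over all 15449 genes tested, threshold 0.05). SE is the log2 fold change divided by the square root of F, errors are SD over n = 3 mice, and the floor of 3 counts was 0.0763 to 0.118 CPM per library. SE and SD include the spread between these mice, and the floors cover counting error only. DESeq2 1.42.0, limma-voom (limma 3.58.1), other scalings, other filters, a replicate block and leaving out each mouse were the alternatives. The test was checked on simulated counts. Sums of CPM over subfamilies were compared by exact permutation tests. Sequences came from RefSeq promoter windows (40 of 48 members matched by symbol) and GENCODE M21 transcripts, whose coordinates equal those of the table for 46 members. Shared sequence is the percentage of 100-base windows of a transcript that occur in another gene's transcripts.

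The members and gene lists were chosen with earlier results of these data known. Named genes follow a rule. They are *Cyp2b9* and *Cyp2a4*, up to 4 members with the largest log2 fold change past the threshold in each direction per large subfamily, the most abundant member of each subfamily per length, all members past the threshold in the other subfamilies, the 3 most changed genes of each other list past the threshold and 9 preset regulators. Other genes were named after their values were seen. One gene of the female-biased list is not reported here and was left out of that list's counts and sums.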

Additional observations from a re-analysis of the deposited data

How the results depend on the processing

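The number of mice and, for the low members, the counts set the limits here. With 3 mice a group, 10 of the 19 called members, *Cyp2b10* and 9 that fell, stayed past the threshold whichever mouse was left out. Over all alternatives 9 called members kept both direction and call, and 1, *Cyp2d22*, reversed (0.042 with library size only). Among the others *Cyp2c69* reversed with limma-voom (-1.07) and without g*Spns1*-cKO liver 2 (-0.41), *Cyp2j6* without control 2 (-0.038) and without g*Spns1*-cKO liver 1 (-0.013), and *Cyp2j9* with library size only (0.16) and without g*Spns1*-cKO liver 1 (0.018). Over all mice left out in turn, *Cyp2c69* ranged from -0.41 to 1.74, *Cyp2j6* from -0.038 to 0.18 and *Cyp2j9* from -0.50 to 0.018. The causes were not tested. Members called higher, 5 in the reported fit, were 2 with at least 1 count in any library, 3 with at least 10 counts in every library, 3 with limma-voom and 1 at an adjusted p under 0.01. The filter of at least 10 counts in every library removed *Cyp2a4* and *Cyp2b9* before the test, since each had 4 counts in control 2. Members called lower, 14 in the reported fit, were 9 with library size only and 9 at an adjusted p under 0.01. The median of the members was -0.045 with library size only. Leaving out each mouse gave 1 to 9 members higher and 9 to 17 lower, and the summed Cyp2a log2 ratio ranged from -0.10 to 0.93.

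Among the other gene lists, library size only gave 2 higher, 3 lower and a median of -0.076 for electron transfer and heme supply, 8 higher, 6 lower and a median of 0.10 for the transcription factors, 4 higher and a median of 0.49 for growth hormone signaling, 13 higher, 3 lower and a median of 0.68 for CAR and PXR targets, a median of 2.54 for the female-biased genes, 5 higher, 4 lower and a median of 0.27 for the perivenous genes, and 13 higher and a median of 0.72 for the P450s outside the rule. Upper-quartile scaling gave medians of -0.39 for electron transfer and heme supply, -0.21 for the transcription factors, 0.18 with 1 gene higher for growth hormone signaling, -0.043 for the perivenous genes and 0.41 for the P450s outside the rule. DESeq2 called 1 growth hormone gene and 10 CAR and PXR targets higher. Leaving out each mouse gave medians of -0.61 to -0.49 for electron transfer and heme supply, -0.40 to -0.27 (2 to 6 higher, 7 to 11 lower) for the transcription factors, -0.29 to 0.10 (0 to 1 higher) for growth hormone signaling, -5.91 to -3.95 for the male-biased genes, 1.87 to 2.65 (4 to 10 higher) for the female-biased genes, -0.32 to -0.13 for the perivenous genes and -0.12 to 0.24 (6 to 12 higher) for the P450s outside the rule.

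Same-numbered livers did not deviate together (correlations of their deviations of 0.04, 0.03 and -0.03). With 3 mice a group these values cannot settle whether the numbers pair the mice. With the replicate block 4 members were higher and 13 lower, and the median was -0.51.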

Other observations

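Pseudogenes of the family lie outside the rule and were read for their values only. *Cyp2d32-ps* had 25, 44 and 35 counts in controls and 0 in every g*Spns1*-cKO liver, at least 15.6-fold lower against a floor of 3 counts per library. *Cyp2d41-ps* had 67, 148 and 98 counts in controls and 14, 79 and 40 in g*Spns1*-cKO livers (log2 fold change -1.67, SE 0.53, edgeR adjusted p = 0.0356), and 3 of the 6 fits without 1 mouse kept it past the threshold. *Cyp2d37-ps*, the most abundant of them, had 3708, 2765 and 2729 counts in controls and 2746, 3868 and 3784 in g*Spns1*-cKO livers and did not pass the test (-0.27, adjusted p = 0.198). *Cyp2a21-ps*, which overlaps *Cyp2a22* on the opposite strand, had 3, 5 and 5 counts in controls and 1, 30 and 26 in g*Spns1*-cKO livers, with liver 1 below the controls and livers 2 and 3 above them. It shares 100-base windows with *Cyp2a4* and *Cyp2a5*, so the origin of these few reads is uncertain.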
